A study of Homo sapiens with 6 samples.

Results

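The integrated stress response is the program by which cells answer amino acid shortage, haem shortage, viral RNA or misfolded protein in the endoplasmic reticulum. Stress-sensing kinases phosphorylate the translation factor eIF2, general protein synthesis slows, and the mRNA of the transcription factor ATF4 is translated more. ATF4 pairs with other basic leucine zipper (bZIP) proteins, mainly of the C/EBP family, and raises genes of amino acid supply together with further regulators and effectors. Messenger RNA for 9 genes of this program is described here: the bZIP factors ATF4, ATF3, ATF5, CEBPB, CEBPG and DDIT3, and the effectors TRIB3, NUPR1 and CHAC1. All 9 were found by gene name among 57396 listed genes, and all 9 were among the 15312 genes with enough counts to test. They were chosen by name, with the SAM against control fold changes of these same libraries already known, so their values below are a description and the number that moved is no evidence about the pathway.

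PC-3 cells, an established line from a metastasis of a prostate carcinoma, received S-adenosylmethionine (SAM, the methyl donor of the cell) at 160 micromolar for 5 days in 3 libraries. The control group of 3 libraries received PBS for the same 5 days. All libraries are of 1 cell line, and nothing in the labels says that they came from separate cultures. The p-values cover only how these libraries varied, and that variation may be technical.

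The libraries held 12020601 to 28995160 gene counts with SAM and 9379258 to 21768273 in controls. Levels are given as CPM, counts scaled to a common library size of 1e+06. The epithelial markers EPCAM, KRT8, KRT18, KRT19 and CDH1 summed to 2850 to 3600 CPM with SAM and 3330 to 3470 CPM in controls. Within that sum CDH1, E-cadherin, fell, with 243, 303 and 256 CPM in SAM 1, 2 and 3, against 390, 348 and 357 CPM in control 1, 2 and 3 (log2 fold change -0.45, SE 0.11, edgeR adjusted p = 0.0298), and its part in the results below was not tested. KLK3 and KLK2, secreted proteases of the prostate epithelium, had 0 counts in every library. Markers of lymphoid and myeloid cells summed to at most 0.999 CPM with SAM and 0.832 CPM in controls, those of endothelium to at most 1.19 and 1.22 CPM, and those of fibroblasts to at most 17.3 and 19 CPM, nearly all of it COL1A1. SAM 2 and control 1 stood apart by their share of mitochondrial ribosomal RNA, 0.863% in SAM 2 and 0.700% in control 1, against 0.431 to 0.499% in the other libraries. They were also the shallowest library of each group, at 12020601 and 9379258 counts. Their deviations from the group means, in log2 CPM over all tested genes, had a correlation of 0.45. Fits that mark or remove both cannot tell depth and that share apart. In edgeR's quasi-likelihood test, 10.4% of tested genes passed a Benjamini-Hochberg adjusted p under 0.05, 5.19% higher and 5.24% lower with SAM. Scaling by library totals alone changed the split from 795 higher and 803 lower to 608 higher and 961 lower.

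Promoter sequences show where 3 of these genes carry a strict or only a loose match to the motif known for ATF4 and its C/EBP partners. RefSeq promoter windows on GRCh38.p14, running from 250 bases before to 50 after a transcription start, were found for 8 members, with 17 windows in all. They were searched on both strands for the C/EBP-ATF motif in a strict form, TGATGCAA, and in a loose form, TGATGNAA, which includes the strict one. The cyclic AMP element TGACGTCA and the C/EBP site TTGCGCAA were searched in the same way. Among 34943 promoter windows of all genes, 0.870% held the strict form, 3.62% the loose form, 1.84% TGACGTCA and 0.152% TTGCGCAA. In the members, the strict form occurred in a CEBPG window 42 bases before the start, and in the CHAC1 window 209 bases before the start on the opposite strand. The loose form alone occurred 191 bases before a start of ATF3. These 3 stretches, all read 5′ to 3′ on the plus strand with the match in capitals, are shown because they are the only matches. They lie at chr19:33374013-33374112 for CEBPG, at chr15:40953251-40953280 for CHAC1 and at chr1:212565170-212565269 for ATF3.
CEBPG: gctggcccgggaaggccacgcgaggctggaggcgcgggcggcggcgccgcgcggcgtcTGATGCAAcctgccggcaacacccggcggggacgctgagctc
CHAC1: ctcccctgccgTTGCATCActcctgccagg
ATF3: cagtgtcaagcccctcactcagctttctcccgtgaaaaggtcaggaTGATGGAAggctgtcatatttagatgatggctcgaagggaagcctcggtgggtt
In GENCODE release 44, the CHAC1 stretch falls within an annotated exon, and the stretches of CEBPG and ATF3 fall in no exon. A match describes letters and was not tested for binding, and the absence of these letters from the other windows says nothing of the factors.

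ATF4, the central transcription factor of the response, was lower on average with SAM but did not pass the test. ATF4 (ENSG00000128272, chromosome 22, positions 39519695 to 39522685) had 263, 266 and 346 CPM in SAM 1, 2 and 3, against 364, 404 and 374 CPM in control 1, 2 and 3. SAM 1 and SAM 2 were well below all controls, and SAM 3 lay just under the lowest control, so the groups did not overlap. The log2 fold change was -0.38 (SE 0.12, edgeR adjusted p = 0.0687). The call turned on SAM 3 and on the method. Without SAM 3 the log2 fold change was -0.52 and the adjusted p 0.00492. The adjusted p was 0.0299 with DESeq2, 0.0223 with no filter on low counts and 0.0393 when control 1 and SAM 2 had their own term. It ran from 0.00492 to 0.204 over 19 alternatives, in all of which ATF4 was lower. In bulk RNA, a lower level in every cell and fewer cells with the transcript cannot be told apart. These libraries measure mRNA, and ATF4 is controlled to a large part in translation, which was not measured.

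ATF5 was the one member that rose. It is a bZIP relative of ATF4, likewise controlled in translation under eIF2 phosphorylation, and is known for driving the mitochondrial unfolded protein response. ATF5 (ENSG00000169136, chromosome 19, positions 49928702 to 49933935) had 87.7, 71.2 and 90.8 CPM in SAM 1, 2 and 3, against 50.8, 47.4 and 48.7 CPM in control 1, 2 and 3. Controls were tightly grouped and every SAM library lay above them. The mean was 83.2 ± 10.5 CPM with SAM and 49.0 ± 1.74 CPM in controls (SD, n = 3), a 1.70-fold rise (log2 fold change 0.77, SE 0.11, edgeR adjusted p = 0.00508). ATF5 was the only member that stayed called in each of the 6 fits that left out 1 library, with log2 fold changes of 0.71 to 0.87 and an adjusted p of up to 0.0491 without control 3. Exons of ATF5 overlap NUP62, a nuclear pore gene on the opposite strand, and the sources do not state whether reads were counted by strand. NUP62 itself averaged 172 ± 9.20 CPM with SAM and 168 ± 5.86 CPM in controls (log2 fold change 0.03, SE 0.09, edgeR adjusted p = 0.837).

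ATF3, an early stress-induced bZIP factor that often represses its targets, fell. ATF3 (ENSG00000162772, chromosome 1, positions 212565334 to 212620777) had 25.3, 24.9 and 23.2 CPM in SAM 1, 2 and 3, against 30.6, 34.0 and 37.8 CPM in control 1, 2 and 3. The SAM libraries were nearly alike and all below the controls, which spread more widely. The log2 fold change was -0.48 (SE 0.10, edgeR adjusted p = 0.0214). The adjusted p was 0.0769 without SAM 1 and 0.0570, 0.0858 and 0.139 without control 1, 2 and 3, and it ran from 0.00278 to 0.139 over the alternatives.

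Of the C/EBP partners, CEBPG fell and CEBPB did not pass the test. CEBPG encodes a C/EBP protein that lacks an activation domain of its own and pairs with ATF4. CEBPG (ENSG00000153879, chromosome 19, positions 33373330 to 33382686) had 56.6, 65.3 and 60.6 CPM in SAM 1, 2 and 3, against 85.7, 80.1 and 85.2 CPM in control 1, 2 and 3. A wide gap separated the groups, and the spread within each was small. The log2 fold change was -0.46 (SE 0.09, edgeR adjusted p = 0.0184), and the adjusted p reached 0.0768 without SAM 1 and 0.0988, 0.0648 and 0.105 without control 1, 2 and 3, with a range of 0.00151 to 0.105 over the alternatives. CEBPB, the inflammatory and metabolic C/EBP factor, had 74.7, 77.7 and 68.5 CPM in SAM 1, 2 and 3, against 77.4, 95.6 and 81.9 CPM in control 1, 2 and 3 (ENSG00000172216, chromosome 20, positions 50190734 to 50192689). SAM 2 lay above control 1, so the groups overlapped. It differed by a log2 fold change of -0.21 (SE 0.11, edgeR adjusted p = 0.222), and the adjusted p stayed at 0.145 or more in every alternative.

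DDIT3, which encodes CHOP, the C/EBP-like factor linked to cell death in prolonged endoplasmic reticulum stress, did not pass the test either. DDIT3 (ENSG00000175197, chromosome 12, positions 57516588 to 57520517) had 22.1, 22.4 and 31.1 CPM in SAM 1, 2 and 3, against 28.4, 27.0 and 27.5 CPM in control 1, 2 and 3. SAM 1 and SAM 2 were the lowest libraries and SAM 3 the highest, with the controls between them. Its log2 fold change was -0.14 (SE 0.14, edgeR adjusted p = 0.519). Without SAM 3 it was -0.31 with an adjusted p of 0.0288, and over the alternatives the adjusted p ran from 0.0288 to 0.910. Exons annotated for DDIT3 overlap MARS, the methionyl-tRNA synthetase gene, and MBD6 on the opposite strand. MARS averaged 284 ± 30.4 CPM with SAM and 370 ± 15.8 CPM in controls (log2 fold change -0.38, SE 0.10, edgeR adjusted p = 0.0436), and without strand its reads and those of DDIT3 cannot be told apart where they overlap.

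The 3 effectors fell, with all libraries kept each by a fitted log2 fold change below those of the bZIP factors. That order depended on SAM 1: without it CHAC1 stood at -0.49 and ATF3 at -0.51. TRIB3 encodes a pseudokinase that binds AKT and ATF4 and is known to dampen ATF4 activity. TRIB3 (ENSG00000101255, chromosome 20, positions 362835 to 397559) had 201, 299 and 315 CPM in SAM 1, 2 and 3, against 425, 439 and 484 CPM in control 1, 2 and 3. Every SAM library lay below every control, with SAM 1 far under the other SAM libraries. The log2 fold change was -0.73 (SE 0.16, edgeR adjusted p = 0.0217). Without SAM 1 it was -0.55 with an adjusted p of 0.0520, and without control 1, 2 and 3 the adjusted p was 0.0726, 0.0737 and 0.113, with a range of 1.46e-07 to 0.113 over the alternatives.

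NUPR1, a small chromatin-associated protein induced by many stresses, showed the largest change of the 9 genes. NUPR1 (ENSG00000176046, chromosome 16, positions 28532708 to 28539174) had 5.96, 9.90 and 10.9 CPM in SAM 1, 2 and 3, against 17.4, 19.9 and 19.4 CPM in control 1, 2 and 3. It is the lowest member, with 117 to 173 counts per SAM library and 162 to 439 per control library, and SAM 1 was again the lowest. The mean was 8.92 ± 2.61 CPM with SAM and 18.9 ± 1.36 CPM in controls (SD, n = 3). On the log2 scale this was a change of -1.12 (SE 0.20, edgeR adjusted p = 0.0119). The log2 fold change ran from -1.33 without SAM 3 to -0.87 without SAM 1, and the call was lost without control 2 (adjusted p = 0.0603) and control 3 (0.0743). Over the alternatives the adjusted p ran from 4.93e-11, with no filter on low counts, to 0.0743.

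CHAC1, a gamma-glutamylcyclotransferase that breaks down glutathione, fell as well. CHAC1 (ENSG00000128965, chromosome 15, positions 40952962 to 40956519) had 23.0, 35.01 and 40.1 CPM in SAM 1, 2 and 3, against 46.7, 54.0 and 56.5 CPM in control 1, 2 and 3. The groups did not overlap, although SAM 3 and control 1 were close. CHAC1 had a log2 fold change of -0.70 (SE 0.18, edgeR adjusted p = 0.0371). This was the least stable of the calls: the adjusted p was 0.0799 without SAM 1, 0.0893, 0.117 and 0.159 without control 1, 2 and 3, and 0.0594 with both SAM 2 and control 1 removed, with a range of 8.42e-07 to 0.159 over the alternatives. Without SAM 1 the log2 fold change was -0.49, against -0.70 with all libraries.

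**Figure D1:**
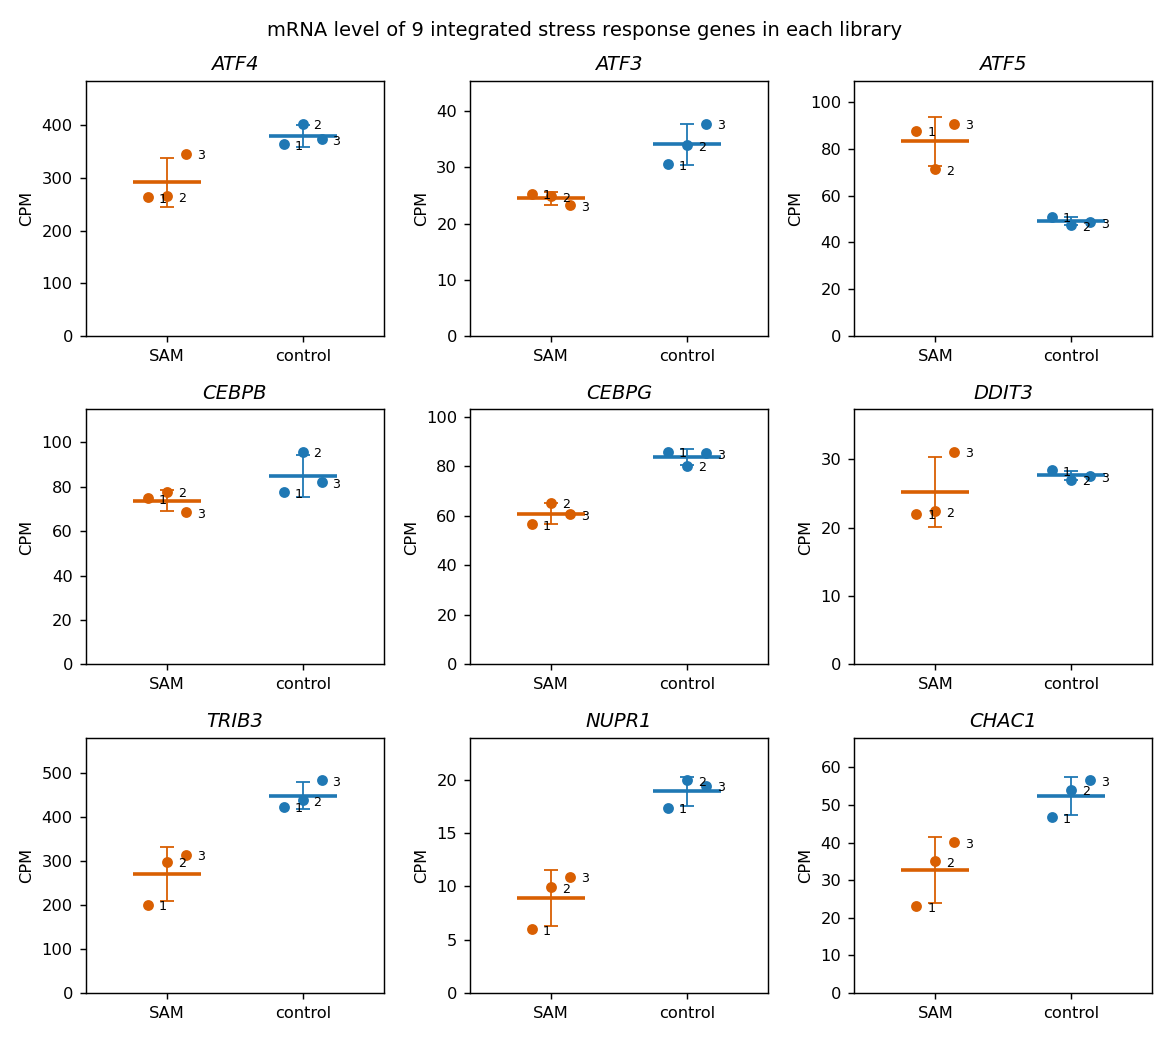
CPM (vertical axes, linear from 0) of the 9 genes in the SAM libraries (orange, left) and control libraries (blue, right), with replicate numbers beside the points, wide lines for the mean and capped bars for the SD (n = 3 each). ATF5 is higher in every SAM library, TRIB3, NUPR1 and CHAC1 are lowest in SAM 1, and SAM 3 is the highest library for DDIT3 at 31.1 CPM.

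Counted together, 1 of the 9 genes was called higher, 5 were called lower and 3 were not called, with a median log2 fold change of -0.46, against -0.01 over all tested genes. Of all tested genes 10.4% were called, 5.19% higher and 5.24% lower. SAM and control libraries did not overlap for 7 of the 9, lower for 6 and higher for ATF5, where 36.7% of all tested genes did not overlap. These counts come from the contrast the genes were chosen with, so nothing is read from them. With both SAM 2 and control 1 removed, 1 member was higher and 4 lower, where 954 genes were called over the whole table. Without SAM 1, 2 and 3, the number of members called was 2, 6 and 8, and without control 1, 2 and 3 it was 2, 1 and 1. Over the whole table those fits called 215, 3233 and 2499 genes without SAM 1, 2 and 3, against 1598 with all libraries. Without control 1, 2 and 3 they called 255, 222 and 139. The direction of every member was the same in all 19 alternatives.

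**Figure D2:**
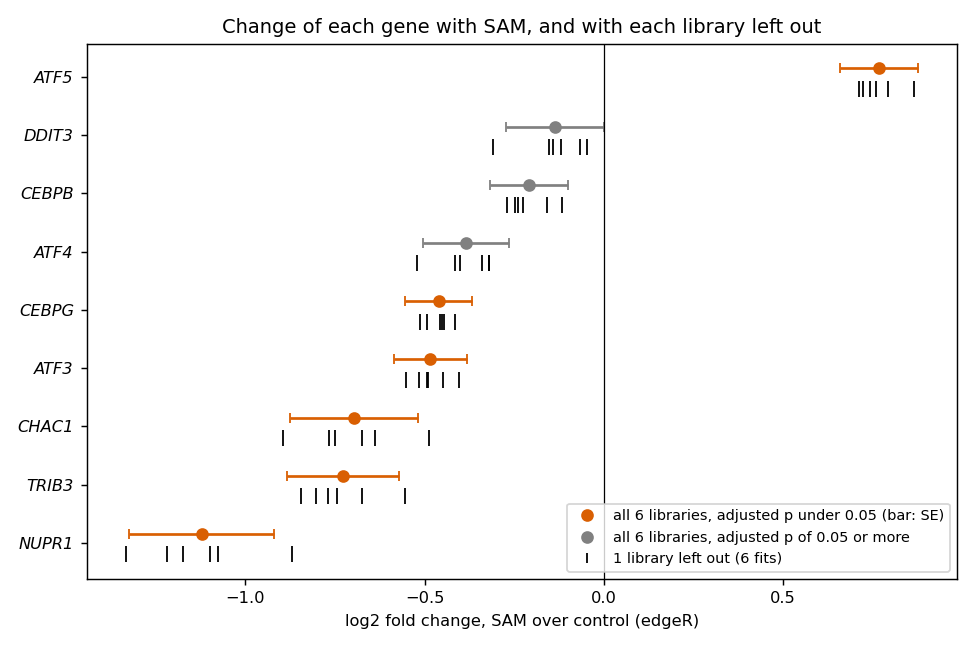
Log2 fold change of SAM over control from edgeR (horizontal axis) for each gene, with the SE as a bar (orange for an adjusted p under 0.05, grey otherwise) and ticks for the 6 fits that each left out 1 library. The ticks of NUPR1 range from -1.33 to -0.87 and those of ATF5 from 0.71 to 0.87. No gene has ticks on both sides of 0, while the SE bar of DDIT3 reaches 0 (-0.14, SE 0.14).

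The SAM libraries were not alike in these genes. SAM 1, the deepest library, held the lowest value of the group for 6 of the 9 genes, ATF4, CEBPG, DDIT3, TRIB3, NUPR1 and CHAC1. SAM 3 held the highest value for 6, ATF4, ATF5, DDIT3, TRIB3, NUPR1 and CHAC1. On a log2 scale against the control mean, CHAC1 stood at -1.19, -0.58 and -0.39 in SAM 1, 2 and 3, NUPR1 at -1.67, -0.94 and -0.80, and TRIB3 at -1.16, -0.59 and -0.51. ATF3, in contrast, stood at -0.43, -0.46 and -0.55, with SAM 3 the lowest. The part of depth in the values of SAM 1 was not tested.

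Levels of different genes were compared per kilobase of the canonical GENCODE transcript, on the CPM per kilobase scale. With SAM, ATF4 was the highest at 206, followed by TRIB3 at 115, ATF5 at 41.5, CEBPB at 40.0, DDIT3 at 27.9, CHAC1 at 21.5, CEBPG at 16.3, ATF3 at 12.6 and NUPR1 at 1.69 CPM per kilobase. Over the SAM libraries ATF5 overlapped with CEBPB, DDIT3 with CHAC1, and CHAC1 with CEBPG. In controls the order was ATF4 at 268, TRIB3 at 191, CEBPB at 46.2, CHAC1 at 34.5, DDIT3 at 30.6, ATF5 at 24.4, CEBPG at 22.4, ATF3 at 17.6 and NUPR1 at 3.58 CPM per kilobase, where CHAC1 and DDIT3 overlapped. ATF5 thus stood above DDIT3 and CHAC1 with SAM, without overlap, and below both in controls. The deposited table gives another transcript length for TRIB3 (877 bases against 2356) and ATF3 (680 against 1940), and with its lengths TRIB3 would lead the controls at 512 against 199 CPM per kilobase for ATF4. ATF3 would then stand next, at 50.2 CPM per kilobase, above CHAC1 at 43.5 and CEBPB at 43.46.

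Ratios of counts within a library do not depend on how libraries are scaled. For each 100 counts of ATF4, ATF5 had 33.3, 26.8 and 26.3 counts in SAM 1, 2 and 3, against 14, 11.7 and 13 in control 1, 2 and 3. NUPR1 had 2.26, 3.72 and 3.15 counts per 100 of ATF4 in SAM 1, 2 and 3, against 4.77, 4.94 and 5.20 in control 1, 2 and 3. Neither ratio overlapped between the groups. DDIT3 had 8.37 to 8.99 with SAM and 6.69 to 7.81 in controls, again without overlap, while ATF3, CEBPB, CEBPG and CHAC1 overlapped. ATF4 itself was lower on average with SAM (log2 fold change -0.38), which by itself raises a ratio to it. On CPM, DDIT3 overlapped between the groups (log2 fold change -0.14). The share of all genes whose ratio to ATF4 did not overlap was not computed. For CPM that share was 36.7% of tested genes. TRIB3 had 76.1, 112 and 91 counts per 100 of ATF4 in SAM 1, 2 and 3, against 117, 109 and 130 in control 1, 2 and 3, where SAM 2 lay above control 2. These ratios are of counts without length and are given as a description.

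**Figure D3:**
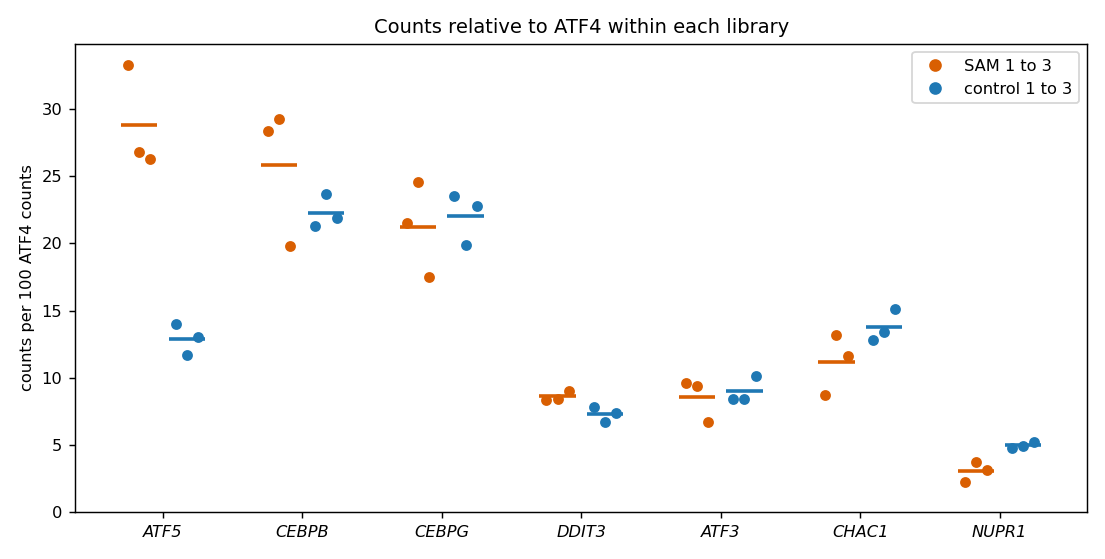
Counts of 7 genes per 100 ATF4 counts in the same library (vertical axis, linear from 0), for SAM 1 to 3 (orange, left) and control 1 to 3 (blue, right), with lines for the group means. ATF5 averages 28.8 with SAM and 12.9 in controls, and CEBPG 21.2 and 22.1.

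Upstream of ATF4, a list of eIF2 kinases, eIF2 and eIF2B subunits and eIF2 phosphatase regulators had 17 tested genes, of which 3 rose, 1 fell and 13 did not pass, with a median log2 fold change of -0.06. That is 23.5% called, where 10.4% of all tested genes were. The rises were all subunits of eIF2B, the exchange factor that recharges eIF2 with GTP. Its other listed subunits, EIF2B1 and EIF2B2, did not pass (edgeR adjusted p = 0.457 and 0.797). EIF2B3 averaged 58.7 ± 4.14 CPM with SAM and 45.3 ± 1.62 CPM in controls, EIF2B4 58.4 and 44.5 CPM, and EIF2B5 89.8 and 71.6 CPM (edgeR adjusted p = 0.0306, 0.0348 and 0.0476). The fall was PPP1R15A, also called GADD34, which brings a phosphatase to eIF2 and is itself induced by the response. PPP1R15A had 47.1, 52.1 and 59.5 CPM in SAM 1, 2 and 3, against 71.2, 67.5 and 84.0 CPM in control 1, 2 and 3 (log2 fold change -0.49, SE 0.12, edgeR adjusted p = 0.0313). None of the 4 eIF2 kinases passed: log2 fold changes were -0.06 for EIF2AK1, -0.06 for EIF2AK2, -0.21 for EIF2AK3 and -0.09 for EIF2AK4. With both SAM 2 and control 1 removed, 0 genes of this list passed by edgeR, where 6 had an unadjusted p under 0.05, and with 1 library left out 0 to 4 did.

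Downstream, most listed targets of ATF4 and CHOP that moved were lower. These lists were written from textbook knowledge with earlier results on ATF4 targets in these libraries known, so they are no independent support. Among genes of amino acid synthesis and transport, 10 of 21 fell, 0 rose and 11 did not pass. The median log2 fold change was -0.46, and 47.6% were called, where 10.4% of all tested genes were. MTHFD2, a mitochondrial folate enzyme, averaged 213 ± 7.56 CPM with SAM and 299 ± 4.78 CPM in controls. SLC38A2, a neutral amino acid transporter, averaged 309 ± 66.1 and 546 ± 41.6 CPM, SLC6A9, a glycine transporter, 16.96 ± 4.01 and 31.7 ± 3.003 CPM, and SLC7A11, the cystine importer, 73.3 ± 31.9 and 167 ± 16.7 CPM. Their log2 fold changes were -0.49, -0.82, -0.93 and -1.19 (edgeR adjusted p = 0.0107, 0.0114, 0.0121 and 0.0183). ASNS, the asparagine synthetase gene often used as a reporter of ATF4, averaged 126 ± 31.5 CPM with SAM and 173 ± 6.38 CPM in controls and did not pass (edgeR adjusted p = 0.0969). It was named after its values were seen. With 1 library left out, 0 to 14 genes of this list fell, and with both SAM 2 and control 1 removed 8 did.

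Aminoacyl-tRNA synthetases, which load amino acids onto tRNA, were listed together with the tRNA exporter XPOT. Of 13 tested genes 5 fell, 0 rose and 8 did not pass. The median log2 fold change was -0.36, and 38.5% were called, where 10.4% of all tested genes were. With every library kept, 2 fell with the replicate block and 3 with upper-quartile scaling. By DESeq2 8 fell, and with no filter on low counts 9 did. CARS averaged 111 ± 19.9 CPM with SAM and 169 ± 7.82 CPM in controls, and SARS, WARS and MARS fell by 0.46, 0.40 and 0.38 on the log2 scale. With 1 library left out 0 to 9 fell, and 1 fell with both SAM 2 and control 1 removed.

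Stress, growth-restraint and secreted targets fell in 9 of 22 genes, rose in 1 and did not pass in 12. The median log2 fold change was -0.33, and 45.5% were called, where 10.4% of all tested genes were. INHBE, an inhibin subunit, had 1.10, 1.52 and 1.45 CPM in SAM 1, 2 and 3, against 4.61, 4.81 and 5.04 CPM in control 1, 2 and 3. STC2, stanniocalcin, and DDIT4, a restraint on mTORC1, had log2 fold changes of -0.90 and -0.84 (edgeR adjusted p = 0.00662 and 0.00903). FGF21, a stress-induced hormone, was near the limit of detection, with 3, 2 and 7 counts in SAM 1, 2 and 3, against 13, 32 and 30 counts in control 1, 2 and 3 (edgeR adjusted p = 0.00761). The rise was SQSTM1, the autophagy receptor p62, which averaged 351 ± 19.2 CPM with SAM and 276 ± 6.36 CPM in controls. INHBE and STC2 were called in each fit that left out 1 library, while DDIT4 was lost without control 2 or 3 and FGF21 without SAM 1 or control 3 (adjusted p up to 0.0587 for both). With 1 library left out 2 to 10 genes fell, and 8 fell with both SAM 2 and control 1 removed.

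Relatives of the 9 genes moved in both directions. Of 40 listed bZIP factors and paralogues 35 were tested, of which 2 rose, 6 fell and 27 did not pass. The median log2 fold change was -0.20, and 22.9% were called, where 10.4% of all tested genes were. FOSL1, an AP-1 subunit, had 382, 385 and 443 CPM in SAM 1, 2 and 3, against 228, 229 and 250 CPM in control 1, 2 and 3 (log2 fold change 0.78, SE 0.10, edgeR adjusted p = 0.00293), and stayed called without each library. JDP2, a bZIP repressor that pairs with JUN, averaged 10.95 ± 1.93 CPM with SAM and 20.7 ± 1.63 CPM in controls (log2 fold change -0.93, SE 0.15, edgeR adjusted p = 0.00746, 0.0557 without control 3). The paralogues of TRIB3 also fell: TRIB2 averaged 31.4 ± 1.55 CPM with SAM and 44.1 ± 2.86 CPM in controls, and TRIB1 77.9 ± 5.61 and 104 ± 5.40 CPM (edgeR adjusted p = 0.0129 and 0.0286). CHAC2, the constitutive relative of CHAC1, had 17.4, 14.9 and 13.3 CPM in SAM 1, 2 and 3, against 11.3, 11.8 and 10.5 CPM in control 1, 2 and 3, and did not pass (edgeR adjusted p = 0.0605). NUPR2, the relative of NUPR1, had 0 counts in every library. CEBPD averaged 5.59 ± 0.573 CPM with SAM and 5.61 ± 0.492 CPM in controls. With 1 library left out, 1 to 14 genes of this list were called, and with both SAM 2 and control 1 removed 1 rose and 3 fell.

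**Figure D4:**
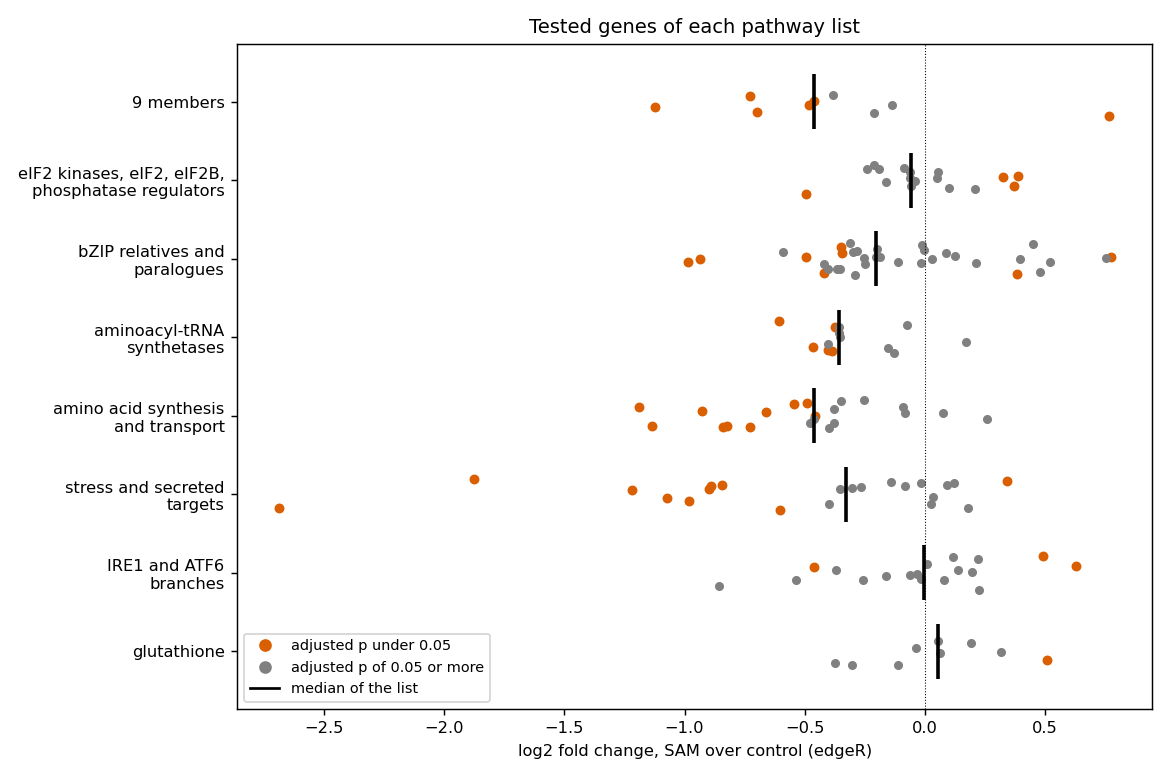
Log2 fold change of SAM over control (horizontal axis) for each tested gene of the 9 described and of 7 pathway lists, in orange where the adjusted p was under 0.05, with a black line at the median of each list. Medians are -0.46 for amino acid synthesis and transport, -0.36 for aminoacyl-tRNA synthetases and -0.003 for the IRE1 and ATF6 branches.

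The other branches of the endoplasmic reticulum stress response, through IRE1 and ATF6, rose in 2 of 18 genes, fell in 1 and did not pass in 15. The median log2 fold change was -0.003, and 16.7% were called, where 10.4% of all tested genes were. SDF2L1 and MANF, proteins of the endoplasmic reticulum induced by misfolded protein, averaged 39.9 ± 4.70 and 146 ± 20.1 CPM with SAM, against 25.7 ± 2.38 and 104 ± 5.05 CPM in controls (edgeR adjusted p = 0.0121 and 0.0288). EDEM1, which directs misfolded glycoproteins to degradation, fell by 0.46 on the log2 scale. HSPA5, the main chaperone of that compartment, averaged 869 ± 79.8 CPM with SAM and 759 ± 48.6 CPM in controls and did not pass (edgeR adjusted p = 0.212). ERN1, the gene of IRE1, averaged 24.6 ± 11.5 CPM with SAM and 44.1 ± 4.72 CPM in controls and did not pass either (log2 fold change -0.86, SE 0.26, edgeR adjusted p = 0.0632). HSPA5 and ERN1 too were named after their values were seen. Of the 18 genes, 9 had a positive and 9 a negative log2 fold change. With 1 library left out, 0 to 6 genes of this list were called.

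Around CHAC1, genes of glutathione synthesis and breakdown were tested in 9 of 10 cases, of which 1 rose and 8 did not pass. The median log2 fold change was 0.05, and 11.1% were called, near the 10.4% of all tested genes. The rise was GCLM, the modifier subunit of the enzyme that starts glutathione synthesis, with 64.1, 55.0 and 42.8 CPM in SAM 1, 2 and 3, against 39.5, 38.5 and 36.2 CPM in control 1, 2 and 3 (log2 fold change 0.51, SE 0.14, edgeR adjusted p = 0.0431). Without SAM 1 or any control library it was not called (adjusted p up to 0.194). With both SAM 2 and control 1 removed 0 genes of the list passed by edgeR, where 4 had an unadjusted p under 0.05, and with 1 library left out the median of the list ran from -0.06 to 0.11.

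Of the calls in the 7 lists, 41 in number among 135 tested genes, 3 held in each of the 6 fits that left out 1 library, those of FOSL1, INHBE and STC2. Most others were lost without SAM 1 and without any 1 control library, as were most calls among the 9 genes. Calls over the whole table fell in the same fits, from 1598 to 215 without SAM 1 and to between 139 and 255 without 1 control library.

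The genes most like ATF4 and ATF5 in pattern were sought among 11634 well expressed genes, by the root mean square difference of log2 CPM over the 6 libraries after each gene's own mean was removed. For ATF4 they were DDAH2, NR2F1 and ZNF219, at differences of 0.0328, 0.0334 and 0.0378, against a spread of ATF4 itself of 0.240. DDAH2 had 48.2, 48.6 and 64.9 CPM in SAM 1, 2 and 3, against 63.4, 72.2 and 67.6 CPM in control 1, 2 and 3, where SAM 3 lay above control 1. For ATF5 they were NRGN, ID3 and ATAD3B, at 0.0525, 0.0702 and 0.0712, against a spread of ATF5 itself of 0.395. NRGN, the nearest, had 15.7, 12.9 and 16.8 CPM in SAM 1, 2 and 3, against 8.47, 8.63 and 9.11 CPM in control 1, 2 and 3. ATAD3B had 113, 98.8 and 115 CPM in SAM 1, 2 and 3, against 62.8, 64.8 and 68.4 CPM in control 1, 2 and 3.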

How the data were processed

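Libraries were made with a TruSeq RNA kit and sequenced on a HiSeq2000, per the labels. The submitters' processing notes list CASAVA 1.8.2, STAR 2.4, HTSeq 0.6.1 and DESeq2 1.8, as well as hg19 and mm10 with no role given. Dose and vehicle in the study's text differ from the labels, which were followed. The authors deposited raw counts per Ensembl gene, and a normalised signal made from the counts by 1 size factor for each library. Of 51488 identifiers shared with GENCODE release 44, 99.9% overlap that gene, so the deposited coordinates belong to GRCh38.

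Counts were tested in edgeR 4.0.16 (R 4.3.3; filterByExpr, TMM, glmQLFit, glmQLFTest, treatment only, two-sided, adjusted over 15312 genes). SEs were taken as the size of the log2 fold change over the square root of F. The fit was tested on simulated data. Alternatives were other scalings and filters, robust dispersion, DESeq2 1.42.0, limma 3.58.1 with voom or with a trend on log2 of the normalised signal plus a pseudocount of 1, a replicate block, a covariate marking SAM 2 and control 1, removal of both, leaving out each library in turn, and a threshold of 0.01. No libraries of a group were duplicates (chi-square per degree of freedom 4.98 to 61.6). Members, lists and alternatives were chosen with earlier results of these data known. Each list names up to 4 called genes with the smallest p. Figures were drawn with matplotlib 3.10.9. PECAM1, listed as an endothelial marker, was not analysed here.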

Additional observations from a re-analysis of the deposited data

How the results depend on the processing

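The number of genes called in the whole table was 1598. It was 2743 with no filter on low counts, 1028 with the replicate number as a block, 2502 with a term for control 1 and SAM 2, 954 with both of them removed and 253 at an adjusted p under 0.01. With 1 library left out it ran from 139 to 3233. Of the 9 genes 6 were called, 1 at an adjusted p under 0.01, and between 1 and 8 with 1 library left out. Of the 135 tested genes in the pathway lists 41 were called, 25 with both control 1 and SAM 2 removed, 7 at an adjusted p under 0.01 and between 3 and 59 with 1 library left out. No member changed direction under any alternative. The replicate block changed no member's call. Same-numbered SAM and control libraries deviated from their group means with correlations of -0.166, -0.399 and 0.134, and no SAM library correlated best with its own number, so the numbers are not taken as pairs. Depth limits mainly FGF21, whose SAM counts lie near the floor of 3 counts.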
